A study of Mus musculus with 6 samples.

Results

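The genes described here are 10 components of the NRF2 antioxidant response and of ferroptosis, taken by symbol from a table of 55291 mouse genes: Nfe2l2, Keap1, Nqo1, Gclc, Gclm, Txnrd1, Srxn1, Slc7a11, Gpx4 and Acsl4. All 10 were found, and all 10 were among the 16506 genes tested. They were followed through bulk RNA sequencing of polyadenylated RNA from 6 tumours of RIL-175/PD-1R, of which RIL-175 is a mouse hepatoma cell line and PD-1R is not explained in the labels. The 3 Cre_PD1 tumours came from LysM-Cre mice, which carry Cre recombinase under the lysozyme M promoter, active in myeloid cells, and are taken here as the controls. The 3 MKO_PD1 tumours came from TREM2-MKO mice; the labels do not spell out MKO or the allele. All 6 mice had been given anti-PD-1, so no tumour shows the state without that antibody. The labels give no age, sex, strain or time after treatment, nor do they say how the tumours were started.

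NRF2, encoded by Nfe2l2, is a transcription factor that KEAP1 holds in the cytoplasm and passes to a CUL3 ubiquitin ligase for degradation. Oxidants and electrophiles modify KEAP1, NRF2 then accumulates, pairs with small MAF proteins and binds antioxidant response elements of genes that make glutathione, reduce thioredoxin and supply NADPH. This control acts mainly on the protein, so transcript levels of Nfe2l2 and Keap1 do not measure NRF2 activity. Ferroptosis is an iron-dependent cell death driven by peroxidation of polyunsaturated membrane phospholipids. ACSL4, an acyl-CoA synthetase, activates polyunsaturated fatty acids for use in phospholipids. The transporter encoded by Slc7a11 brings in cystine for glutathione, and GPX4 uses glutathione to reduce lipid peroxides.

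Promoter sequences were available from RefSeq (build GRCm38.p6) for 9 of the 10 genes, all but Gclc, as 14 windows from 250 bases before to 50 bases after a transcript start. The antioxidant response element was searched as TGACNNNGC on both strands. It was present in 1 window each of Nfe2l2, Gclm, Txnrd1 and Srxn1, 4 of 14 windows, against 12.4% of all 32851 promoter windows. The amino acid response element, searched as TGATGNAA on both strands, is a site for ATF4 dimers. It was found in the Slc7a11 window alone among the 14, where it occurred 2 times, against 3.97% of all windows with a match. The AP-1 site TGANTCA, which reads alike on both strands and can overlap an antioxidant response element, was present 2 times in the Srxn1 window, against 7.81% of all windows. The 250 bases before the start are shown for Slc7a11, the gene with the lowest MKO_PD1 values relative to control, and for Gclm, Txnrd1 and Srxn1, which are known NRF2 targets and held a match to the antioxidant response element. Capitals mark the matches to the 3 motifs, and each sequence runs 5′ to 3′ on the strand of its gene.
Slc7a11, chr3:50443614-50443863, minus strand: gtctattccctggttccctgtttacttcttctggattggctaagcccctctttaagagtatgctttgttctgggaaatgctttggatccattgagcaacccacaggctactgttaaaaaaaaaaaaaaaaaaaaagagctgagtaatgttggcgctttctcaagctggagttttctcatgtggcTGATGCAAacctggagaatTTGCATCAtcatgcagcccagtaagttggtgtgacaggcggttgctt
Gclm, chr3:122245307-122245556, plus strand: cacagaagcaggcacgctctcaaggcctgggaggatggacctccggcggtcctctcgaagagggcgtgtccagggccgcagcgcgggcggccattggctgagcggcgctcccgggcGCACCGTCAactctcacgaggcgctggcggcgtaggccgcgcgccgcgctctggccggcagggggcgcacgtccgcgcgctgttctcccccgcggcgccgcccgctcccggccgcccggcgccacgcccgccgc
Txnrd1, chr10:82858956-82859205, plus strand, the second of 3 starts: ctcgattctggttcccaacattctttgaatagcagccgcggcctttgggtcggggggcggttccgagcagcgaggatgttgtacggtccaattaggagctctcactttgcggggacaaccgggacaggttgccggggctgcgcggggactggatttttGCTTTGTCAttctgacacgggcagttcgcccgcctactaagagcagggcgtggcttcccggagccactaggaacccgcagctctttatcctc
Srxn1, chr2:152105274-152105523, plus strand: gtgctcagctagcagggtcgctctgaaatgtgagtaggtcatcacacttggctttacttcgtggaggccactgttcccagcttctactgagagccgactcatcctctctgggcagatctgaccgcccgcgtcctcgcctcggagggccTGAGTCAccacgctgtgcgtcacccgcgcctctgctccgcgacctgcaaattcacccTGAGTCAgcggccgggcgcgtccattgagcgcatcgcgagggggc
The Slc7a11 matches lay at -66 to -59 and at -47 to -40 from the start, on opposite strands. The Gclm match lay at -134 to -126 and that of Txnrd1 at -92 to -84. The antioxidant response element match of Srxn1 lay at 29 to 37, after the start and outside the printed bases, whereas its AP-1 matches lay at -102 to -96 and -45 to -39. The AP-1 match at -45 to -39 is followed by GC and so reads TGAGTCAGC. That differs from the searched TGACNNNGC only by G in place of C, and wider forms of the element were not searched. A match of letters is a description and not evidence of binding.

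The libraries held from 26747236 to 34264909 reads, recovered from the deposited values. Levels are given in TPM, the read signal per exon length scaled to 1000000 per library. Trem2 itself was at 10.5, 16.5 and 14.9 TPM in Cre_PD1 replicates 1 to 3 and had values of 7.68, 18.0 and 6.81 TPM in MKO_PD1 replicates 1 to 3 (log2 difference -0.44, SE 0.40; limma adjusted p = 0.432; -0.01 with median-of-ratios factors). The labels do not say which part of the gene is deleted, so whole-gene reads need not show it. The 24 hepatocyte marker genes, none of them at 0, took 2.57 to 4.65% of TPM in Cre_PD1 and 22.5, 5.74 and 16.1% in MKO_PD1 replicates 1, 2 and 3. The 10 markers of epithelial tumour cells, also all detected, took 1.83 to 2.49% in Cre_PD1 and 0.251, 0.997 and 0.671% in MKO_PD1. The 14 macrophage markers took 0.381 to 0.501% and 0.427 to 1.0%, and the 12 neutrophil markers 0.0118 to 0.0244% and 0.0301 to 0.123%. In bulk tissue, fewer cells of a type and less RNA per cell cannot be told apart. The part of tissue content in the differences below was not tested beyond the fit with hepatocyte content as a covariate.

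None of the 10 genes changed between the groups by the test used, limma on log2(TPM + 1) with p adjusted by Benjamini-Hochberg over the whole table (0 of 10 past 0.05; background 0.0121% of tested genes, 0.00606% in each direction). Adjusted p ran from 0.209 to 0.821, and 0 of 10 had an unadjusted p under 0.05, against 27.9% of all tested genes, 8.47% higher and 19.5% lower in MKO_PD1. The groups did not overlap for 2 of the 10, Nqo1 higher and Gpx4 lower in MKO_PD1, against 39.0% of all tested genes, 10.1% higher and 28.9% lower. The median log2 difference, MKO_PD1 minus Cre_PD1, was -0.27 over the 10 genes and -0.42 over all tested genes. On a second scale, median-of-ratios factors, which set the typical gene to no change, these medians were 0.21 and -0.02. The scale set the sign of 5 of the 10 genes, with 8 of 10 differences below 0 in TPM and 3 of 10 below 0 with median-of-ratios factors. For each of the 10 genes the difference is therefore given on both scales.

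The levels spanned a wide range. Gpx4 was the most abundant in every library, its lowest value of 444 TPM lying above the highest of any other member, 178 TPM for Gclc. Gclc, Acsl4 and Nfe2l2 came next with means over the 6 libraries of 109.7, 108 and 92.9 TPM. Their ranges over libraries overlapped, so their order is not resolved. Gclm, Srxn1, Txnrd1 and Keap1 followed at means of 64.0, 58.6, 58.0 and 56.2 TPM, again with overlapping ranges. Nqo1 and Slc7a11 were the rarest, at means of 6.12 and 3.99 TPM. That placed them at the 32.2 and 24.3 percentile of tested genes, whereas the other 8 lay at the 83.7 percentile or above. The highest Nqo1 value, 11.1 TPM, was below the lowest value of any of those 8 genes, 35.2 TPM for Keap1.

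**Figure D1:**
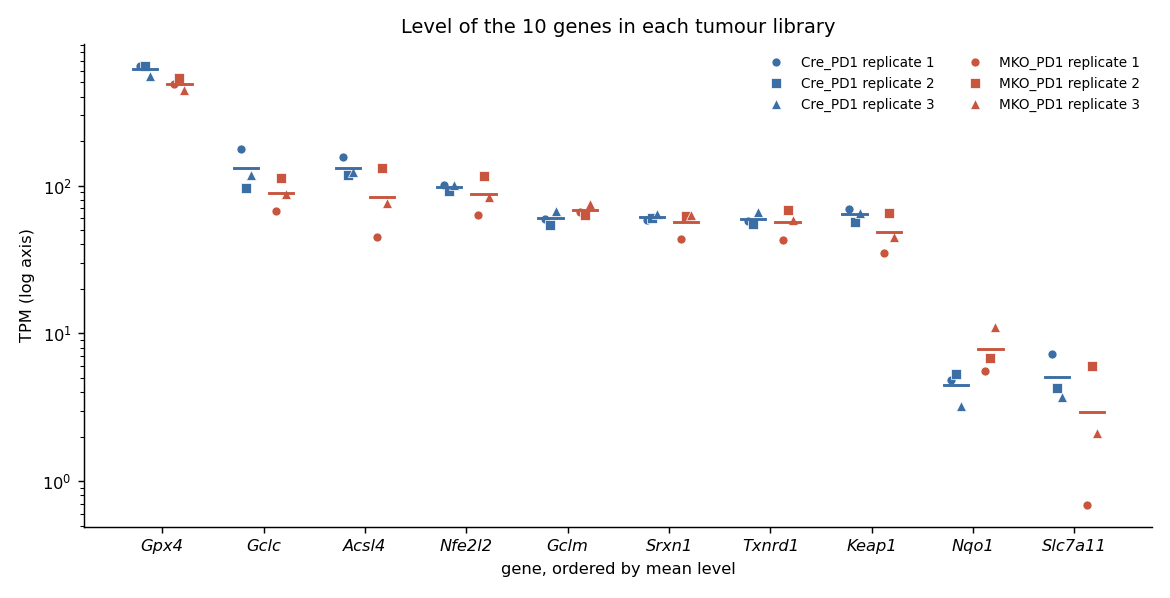
Level of each of the 10 genes in TPM, on a log axis, in the 3 Cre_PD1 (blue) and 3 MKO_PD1 (red) tumour libraries, with marker shape for the replicate number and a bar for the group mean. Gpx4 lies above all other genes, Nqo1 and Slc7a11 lie below all others, and MKO_PD1 replicate 1 is the lowest library for 7 of 10 genes.

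Of the regulators, Nfe2l2 (ENSMUSG00000015839.6, chromosome 2, 75675513 to 75704641, minus strand of GRCm38) was at 101, 91.4 and 101 TPM in the Cre_PD1 libraries and 63, 116 and 83.9 TPM in the MKO_PD1 libraries. MKO_PD1 replicate 2 was the highest of all libraries and replicates 1 and 3 were below every control. The log2 difference was -0.20 (SE 0.28, 95% interval -0.85 to 0.45; limma adjusted p = 0.610) in TPM and 0.27 with median-of-ratios factors. Keap1, the inhibitor (ENSMUSG00000003308.15, chromosome 9, 21229730 to 21239361, minus strand), was at 69.7, 56.8 and 65.5 TPM in the Cre_PD1 libraries and 35.2, 65.3 and 44.8 TPM in the MKO_PD1 libraries. Again replicate 2 of MKO_PD1 lay among the controls and the other two below them. Its log2 difference was -0.43 (SE 0.29, 95% interval -1.10 to 0.23; limma adjusted p = 0.30), or 0.04 with median-of-ratios factors. The antisense gene Gm16754, at up to 13.3 TPM, overlaps Keap1, and the strand setting of the counting is not given in the sources used here, so their reads may be mixed.

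Within a library the ratio of Nfe2l2 to Keap1 was 1.45, 1.61 and 1.55 in Cre_PD1 and 1.79, 1.78 and 1.87 in MKO_PD1. All 3 MKO_PD1 values lay above all 3 controls. As log2 ratios with the pseudocount of 1, the means were 0.61 ± 0.07 and 0.85 ± 0.04 (SD, n = 3 each), a 1.18-fold difference with an exact two-sided permutation p = 0.1, the smallest that 3 against 3 can give. Adjusted over the 5 ratios examined it was 0.5 by the exact permutation test. Set against Keap1 in the same way, 37.7% of all other tested genes separated the groups, 17.2% of all with a higher ratio in MKO_PD1, so separation of this kind was common among genes. Scaling a library up or down leaves such a plain ratio as it is.

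Of 19 tested NRF2 regulator genes, which include these 2, 0 passed the threshold, and 4 had an unadjusted limma p under 0.05, all lower in MKO_PD1, where 19.5% of all tested genes were lower at that threshold. The list median was -0.48 in TPM and -0.01 with median-of-ratios factors, against -0.42 and -0.02 for all genes. These 4 were the small MAF gene Maff, the ubiquitin ligase scaffold gene Cul3, the dipeptidyl peptidase gene Dpp3, whose product binds KEAP1, and the ubiquitin ligase gene Trim16. In Cre_PD1 and then MKO_PD1 (mean ± SD, n = 3 each, as in all such pairs below), Maff averaged 122 ± 27.1 and 47.6 ± 23.4 TPM, and Cul3 98.4 ± 15.2 and 54.6 ± 17.8 TPM. Dpp3 averaged 45.4 ± 3.71 and 28.4 ± 5.26 TPM, and Trim16 10.4 ± 2.19 and 4.70 ± 3.13 TPM. The limma adjusted p was 0.168 for each of the 4. With the mean of the hepatocyte markers as a covariate, all 32 pathway genes named here and below had differences nearer to 0, and 6 of them turned sign. These 32 were picked by smallest p in the fit without it, a choice that favours such a move. Among all tested genes, those with an unadjusted limma p under 0.05 went from 4612 to 453. The hepatocyte marker mean in log2(TPM + 1) was 8.384, 9.803 and 9.762 in Cre_PD1 and 11.81, 10.18 and 11.47 in MKO_PD1. Every MKO_PD1 library thus exceeded every control, so group and hepatocyte content cannot be told apart in that fit. The fall in number therefore does not measure the part of hepatocyte content.

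Nqo1, which encodes a quinone reductase and is a standard NRF2 target (ENSMUSG00000003849.8, chromosome 8, 107388225 to 107403206, minus strand), had the largest positive difference of the 10 genes. It was at 4.81, 5.31 and 3.23 TPM in the Cre_PD1 libraries and 5.55, 6.77 and 11.1 TPM in the MKO_PD1 libraries. Every MKO_PD1 library exceeded every control, but the nearest values of the groups, 5.31 and 5.55 TPM, were close. These levels rest on 76, 99 and 44 reads in Cre_PD1 and 113, 105 and 182 reads in MKO_PD1. The log2 difference was 0.66 (SE 0.34, 95% interval -0.13 to 1.45; limma adjusted p = 0.216), 1.58-fold on the log2(TPM + 1) scale, and 1.07 with median-of-ratios factors. It was higher in 3 of 3 MKO_PD1 libraries. Without MKO_PD1 replicate 3, the highest library, it was 0.41. The 3 genes whose centred log2 profile over the 6 libraries lay nearest to that of Nqo1 were the chemokine gene Ccl24, the lectin gene Clec1a and Mroh6, at root mean square distances of 0.203, 0.205 and 0.207 log2 units.

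The subunits of glutamate cysteine ligase, the rate-limiting enzyme of glutathione synthesis, had differences of opposite sign on both scales, neither past the threshold. Gclc, the catalytic subunit (ENSMUSG00000032350.9, chromosome 9, 77754535 to 77794485, plus strand), was at 178, 96.6 and 117 TPM in the Cre_PD1 libraries and 66.8, 112 and 88.3 TPM in the MKO_PD1 libraries. Cre_PD1 replicate 1 stood highest and MKO_PD1 replicate 1 lowest, and the groups overlapped. Gclm, the modifier subunit (ENSMUSG00000028124.15, chromosome 3, 122245557 to 122270732, plus strand), was at 59.2, 54.2 and 66.8 TPM in the Cre_PD1 libraries and 65.8, 63.5 and 74.5 TPM in the MKO_PD1 libraries. It was one of the 3 members that did not have their lowest value in MKO_PD1 replicate 1. The log2 difference was -0.53 for Gclc (SE 0.32, 95% interval -1.27 to 0.21; limma adjusted p = 0.266), or -0.28 without Cre_PD1 replicate 1 and -0.34 without MKO_PD1 replicate 1, and 0.18 for Gclm (SE 0.23, 95% interval -0.35 to 0.70; limma adjusted p = 0.580). With median-of-ratios factors these were -0.06 and 0.65.

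The Gclm to Gclc ratio was 0.332, 0.561 and 0.573 in Cre_PD1 and 0.985, 0.568 and 0.843 in MKO_PD1. In MKO_PD1 replicate 1 both subunits were thus nearly level, and MKO_PD1 replicate 2 lay inside the control range. The log2 ratio differed by 0.71 (-1.06 ± 0.44 against -0.36 ± 0.40, SD, n = 3 each; exact two-sided permutation p = 0.2, and 0.5 adjusted over the 5 ratios). The hepatocyte marker share was highest in the same libraries as the ratio, MKO_PD1 replicates 1 and 3, and lowest in Cre_PD1 replicate 1, which had the lowest ratio; its part in the ratio was not tested. Relative to Gclc, 21.2% of all other tested genes separated the groups.

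Txnrd1, the cytosolic thioredoxin reductase (ENSMUSG00000020250.10, chromosome 10, 82833951 to 82897712, plus strand), was at 57.3, 54.6 and 65.8 TPM in the Cre_PD1 libraries and 42.7, 68.7 and 58.6 TPM in the MKO_PD1 libraries. Srxn1, sulfiredoxin, which restores overoxidised peroxiredoxins (ENSMUSG00000032802.8, chromosome 2, 152105516 to 152111376, plus strand), had 58.7, 60.5 and 63.9 TPM in controls against 43.6, 62.3 and 62.9 TPM. For both genes MKO_PD1 replicate 1 was the lowest library and the other MKO_PD1 values fell in or near the control range. The log2 differences were -0.08 (SE 0.26, 95% interval -0.69 to 0.52; limma adjusted p = 0.821) and -0.13 (SE 0.25, 95% interval -0.70 to 0.44; limma adjusted p = 0.70). On the median-of-ratios scale both had the opposite sign, 0.39 and 0.34. Srxn1 varied least among the controls, with an SD of 4.31% of its mean. The ratio of Txnrd1 to Txn1, the gene of its substrate thioredoxin, did not separate the groups (log2 difference -0.09, against 41.5% of all other tested genes that separated the groups relative to Txn1; exact two-sided permutation p = 0.6, and 0.75 adjusted over the 5 ratios).

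Among 30 further NRF2 target genes, all tested and none of them a member, 0 passed the threshold. At an unadjusted limma p under 0.05 there were 14, 4 higher and 10 lower in MKO_PD1, against 8.47% higher and 19.5% lower among all tested genes. The list median was -0.21 in TPM and 0.23 with median-of-ratios factors, against -0.42 and -0.02 for all tested genes. The 4 of smallest p were all lower. Aldh3a1, an aldehyde dehydrogenase gene, was at 58.9, 44.2 and 44.9 TPM in the Cre_PD1 libraries and 3.10, 23.9 and 10.5 TPM in the MKO_PD1 libraries. Gsta4, whose glutathione transferase detoxifies the lipid peroxidation product hydroxynonenal, had 279.8, 137 and 114 TPM in controls against 19.3, 74.5 and 46.2 TPM. The NADPH-producing malic enzyme gene Me1 averaged 198 ± 61.3 and 86.4 ± 24.8 TPM and the transketolase gene Tkt 159 ± 21.3 and 86.4 ± 20.1 TPM. The log2 differences were -2.24 (SE 0.59) for Aldh3a1, -1.98 (SE 0.53) for Gsta4, -1.19 for Me1 and -0.89 for Tkt, each with a limma adjusted p = 0.168. These targets thus had differences of opposite sign to that of Nqo1, with values of -1.82, -1.52, -0.71 and -0.42 on the median-of-ratios scale. With the hepatocyte covariate they were -0.64, -0.31, -0.30 and -0.33 (limma adjusted p = 1.0 for each).

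Genes of glutathione turnover and of the peroxidases went both ways. Of 19 tested glutathione genes, 3 of them members, 0 passed. At an unadjusted limma p under 0.05, 3 were higher and 2 lower in MKO_PD1, against 8.47% and 19.5% of all tested genes. Cth, which makes cysteine from cystathionine and so offers a source of it apart from cystine uptake, had control values of 9.73, 41.3 and 27.2 TPM and MKO_PD1 values of 104, 46.3 and 104 TPM (log2 difference 1.78, SE 0.54; limma adjusted p = 0.168; 2.25 with median-of-ratios factors). The 5-oxoprolinase gene Oplah and the aminopeptidase gene Anpep averaged 16.0 ± 7.40 and 34.8 ± 9.59 TPM, and 37.0 ± 13.3 and 79.7 ± 4.50 TPM. Glutathione reductase, Gsr, averaged 313 ± 60.8 and 166 ± 79.2 TPM. Of 23 tested peroxidase, thioredoxin and superoxide enzyme genes, again 3 of them members, 0 passed. There were 3 higher and 3 lower at an unadjusted limma p under 0.05, against the same 8.47% and 19.5%. The catalase gene Cat averaged 352 ± 161 and 784 ± 256 TPM and Prdx6, whose peroxiredoxin reduces phospholipid peroxides, 95.9 ± 19.7 and 161 ± 6.84 TPM. The endoplasmic reticulum peroxidase gene Gpx8 averaged 244 ± 27.7 and 92.9 ± 56.5 TPM and Prdx2 326 ± 18.1 and 172 ± 59.9 TPM. Each named here had a limma adjusted p = 0.168 and kept its sign with median-of-ratios factors. With the hepatocyte covariate the difference of Cth was 0.00240, those of Cat and Oplah were -0.11 and -0.05, and that of Gsr was 0.02. Anpep was then at 0.68, Prdx6 at 0.39, Gpx8 at -0.62 and Prdx2 at -0.36.

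**Figure D2:**
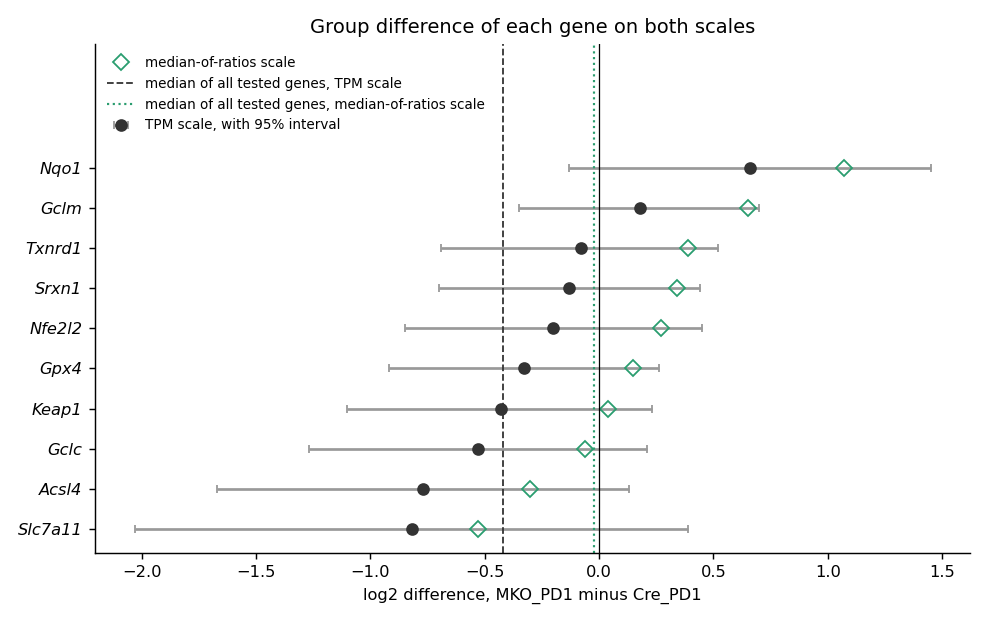
Log2 difference of each of the 10 genes, MKO_PD1 minus Cre_PD1, in TPM (filled circles with 95% intervals from limma, n = 3 each) and with median-of-ratios factors (open diamonds), with lines at 0 and at the median of all tested genes on each scale. All 10 intervals include 0, and Nfe2l2, Keap1, Txnrd1, Srxn1 and Gpx4 lie below 0 on the first scale and above 0 on the second.

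Slc7a11, the cystine importing subunit of system xc- (ENSMUSG00000027737.10, chromosome 3, 49892526 to 50443614, minus strand), had the largest negative difference of the 10 genes and, in both groups, the largest SD relative to its mean. It was at 7.22, 4.23 and 3.70 TPM in the Cre_PD1 libraries and 0.690, 5.97 and 2.11 TPM in the MKO_PD1 libraries, from 1022, 708 and 452 reads and from 126, 831 and 310 reads. MKO_PD1 replicate 1 lay 7.32-fold below the control mean, replicate 3 also lay below every control, and replicate 2 lay inside the control range. The log2 difference was -0.82 (SE 0.52, 95% interval -2.03 to 0.39; limma adjusted p = 0.287), and -0.53 with median-of-ratios factors. At these low levels its size depended on the pseudocount. With 0.5 and 0.1 in place of 1, the difference of Slc7a11 was -0.98 and -1.17 (limma adjusted p = 0.284 for each). Slc3a2, the chaperone subunit of the same transporter and of other amino acid transporters, had control values of 184, 159.6 and 149 TPM and MKO_PD1 values of 59.4, 146 and 89.0 TPM, all below the controls (log2 difference -0.83, SE 0.34; limma adjusted p = 0.173; -0.36 with median-of-ratios factors). The log2 ratio of Slc7a11 to Slc3a2 was -4.81 ± 0.28 in Cre_PD1 and -4.80 ± 0.39 in MKO_PD1 (SD, n = 3 each; exact two-sided permutation p = 1.0), and 38.0% of all other tested genes separated the groups relative to Slc3a2. Without a pseudocount the difference of this ratio was -0.40. The genes nearest to Slc7a11 in centred log2 profile were the natural killer receptor gene Klri1, the heparanase gene Hpse and the suprabasin gene Sbsn, at distances of 0.0960, 0.116 and 0.125 log2 units.

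ATF4, the factor of the integrated stress response, is known to act through amino acid response elements, the motif searched in the Slc7a11 promoter, and transcripts of that response are used as markers beside ferroptosis. The list of 10 ferroptosis transcript markers, all tested, held genes of that response beside Ptgs2, Rgs4 and Tfrc. Of these 10 genes, 0 passed the threshold. At an unadjusted limma p under 0.05, 3 were lower and 0 higher in MKO_PD1, against 19.5% and 8.47% of all tested genes. The groups did not overlap for 5 of the 10, all lower, against 28.9% of all tested genes. The list median was -0.72 in TPM and -0.26 with median-of-ratios factors, against -0.42 and -0.02 for all tested genes. Atf4 was at 318, 354 and 308 TPM in controls and MKO_PD1 values were 150.1, 281 and 211 TPM (log2 difference -0.65, SE 0.29; limma adjusted p = 0.184; -0.17 with median-of-ratios factors). The asparagine synthetase gene Asns had 91.0, 48.4 and 45.6 TPM in controls against 10.8, 39.1 and 19.6 TPM. Trib3 and Ddit3, pseudokinase and transcription factor genes induced by ATF4, had controls of 62.7, 58.8 and 42.8 TPM against 13.0, 37.9 and 17.4 TPM, and of 72.1, 51.2 and 46.0 TPM against 17.9, 36.9 and 32.9 TPM (limma adjusted p = 0.168 for each of Asns, Trib3 and Ddit3). In all 4 genes, as in Slc7a11, MKO_PD1 replicate 1 was the lowest library, as it was for 70.2% of all tested genes. With the hepatocyte covariate the differences were 0.06 for Asns, -0.30 for Trib3, -0.15 for Ddit3 and -0.21 for Atf4.

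Gpx4, the selenoprotein that reduces phospholipid peroxides (ENSMUSG00000075706.10, chromosome 10, 80047166 to 80056439, plus strand), was at 644, 645 and 552 TPM in the Cre_PD1 libraries and 485, 537 and 444 TPM in the MKO_PD1 libraries. All 3 MKO_PD1 values were below all 3 controls in TPM, but with median-of-ratios factors the log2 difference was 0.15 in place of -0.33 (SE 0.26, 95% interval -0.92 to 0.26; limma adjusted p = 0.366). The processed copy Gpx4-ps2 was listed at 63.6 to 86.4 TPM, 11.6 to 16.1% of the Gpx4 value, so reads may be split between them. The sum of both was 719, 723 and 623 TPM in Cre_PD1 and 548, 623 and 509 TPM in MKO_PD1. In this sum Cre_PD1 replicate 3 and MKO_PD1 replicate 2 were level at 623 TPM. The separation of the groups by Gpx4 alone thus depends on how reads were split with the copy. Gpx4 was among the steadiest members, with an SD of 8.72% of the mean in Cre_PD1 and 9.57% in MKO_PD1.

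Other suppressors of ferroptosis spread more. Of 22 tested, which include Gpx4 and Slc7a11, 0 passed the threshold. At an unadjusted limma p under 0.05 there were 4 higher and 5 lower in MKO_PD1, against 8.47% and 19.5% of all tested genes. Mboat1 and Mboat2, which encode acyltransferases that place monounsaturated fatty acids in phospholipids, had 40.7, 33.6 and 38.9 TPM against 3.83, 20.8 and 12.5 TPM, and 17.4, 11.0 and 12.5 TPM against 1.2, 7.0 and 4.36 TPM. Both were lower in each MKO_PD1 library than in any control, with log2 differences of -1.78 (SE 0.51) and -1.66 (SE 0.49) in TPM (limma adjusted p = 0.168 for each), -1.35 and -1.30 with median-of-ratios factors, and -0.58 and -0.40 with the hepatocyte covariate. Scd2, encoding a fatty acid desaturase, averaged 558 ± 117 and 201 ± 137 TPM, while Cisd1, of a mitochondrial iron-sulfur protein, averaged 81.5 ± 28.0 and 194 ± 83.1 TPM. With the hepatocyte covariate their differences were -0.30 and -0.06. The list for selenoprotein synthesis, on which GPX4 depends, also held genes of other selenoproteins. Of its 16 tested genes, 0 passed. At an unadjusted limma p under 0.05, 1 was higher and 3 were lower, against the same 8.47% and 19.5%. The higher gene was Sephs2, the selenophosphate synthetase gene, at 87.0, 179.5 and 181 TPM in controls against 589.9, 245 and 442 TPM (log2 difference 1.49, SE 0.42; limma adjusted p = 0.168; 1.97 with median-of-ratios factors and 0.13 with the hepatocyte covariate). The selenoprotein genes Selenom, Selenoh and Selenof averaged 213 ± 13.8 and 85.5 ± 66.4 TPM, 165 ± 3.86 and 78.5 ± 36.6 TPM and 235 ± 21.1 and 142 ± 39.4 TPM, and with the covariate their differences were -0.28, -0.40 and -0.20.

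Acsl4, the acyl-CoA synthetase that favours arachidonic acid (ENSMUSG00000031278.12, chromosome X, 142317993 to 142390535, minus strand), was at 156, 118 and 123 TPM in the Cre_PD1 libraries and 44.7, 132 and 75.8 TPM in the MKO_PD1 libraries. Replicates 1 and 3 of MKO_PD1 were below every control, replicate 1 being 2.97-fold below the control mean, and replicate 2 was within the control range. The log2 difference was -0.77 (SE 0.39, 95% interval -1.67 to 0.13; limma adjusted p = 0.209), or -0.30 with median-of-ratios factors. The Acsl4 to Gpx4 ratio was 0.242, 0.184 and 0.223 in Cre_PD1 and 0.0922, 0.245 and 0.171 in MKO_PD1. The groups overlapped in this ratio, while 25.5% of all other tested genes separated them relative to Gpx4 (log2 difference -0.44; exact two-sided permutation p = 0.5, and 0.75 adjusted over the 5 ratios). Of 28 tested ferroptosis driver genes, which include Acsl4, 0 passed the threshold. At an unadjusted limma p under 0.05, 1 was higher and 3 lower, against 8.47% and 19.5% of all tested genes. The list median was 0.23 in TPM and 0.69 with median-of-ratios factors, against -0.42 and -0.02 for all tested genes. The 4 genes named next were picked by smallest p and do not stand for the list. Pebp1, whose product binds lipoxygenases, averaged 774 ± 57.0 and 396 ± 203 TPM, Cyb5r1 46.2 ± 3.83 and 25.5 ± 12.8 TPM and the channel gene Vdac3 88.6 ± 5.50 and 53.5 ± 13.5 TPM. The NADPH oxidase gene Nox4 averaged 2.25 ± 1.26 and 6.81 ± 3.14 TPM, with overlapping groups and a difference of -0.15 with the hepatocyte covariate (limma adjusted p = 0.168 for each of these 4 without it). The covariate left -0.20 for Pebp1, -0.06 for Cyb5r1 and -0.27 for Vdac3.

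**Figure D3:**
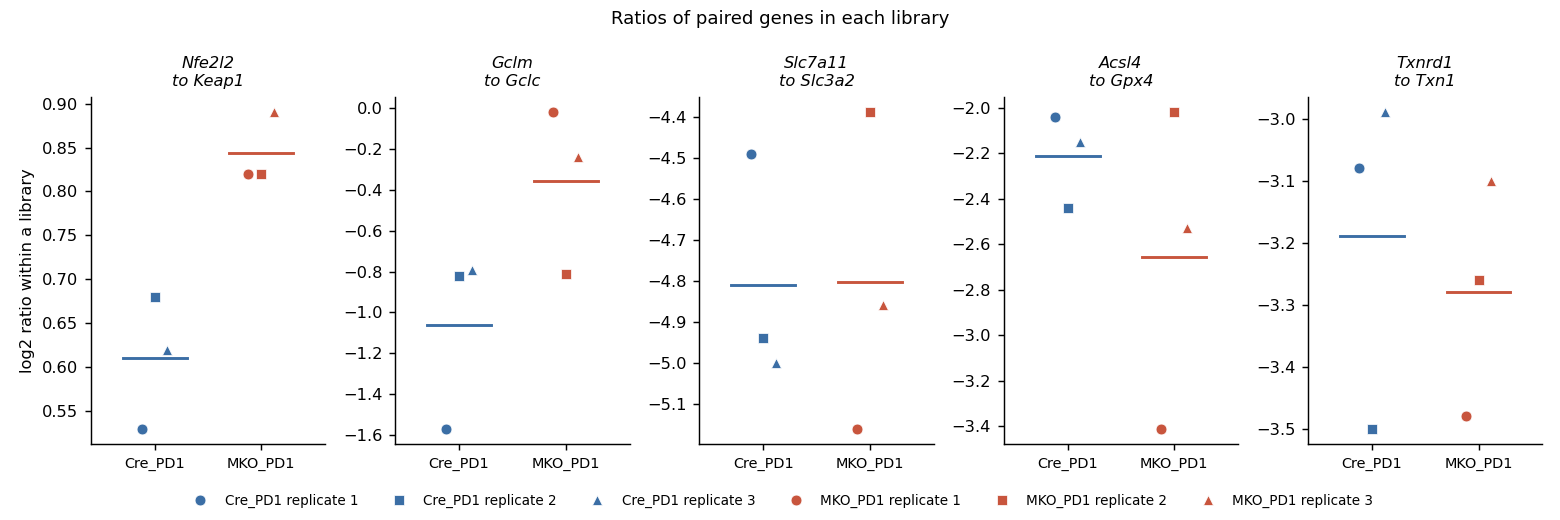
Log2 ratio, log2(TPM + 1) of the first gene minus that of the second, in each library for the 5 gene pairs, with a bar for each group mean (n = 3) and a separate axis range per panel. Only the Nfe2l2 to Keap1 ratio has all 3 MKO_PD1 values above all 3 Cre_PD1 values, 0.82 to 0.89 against 0.53 to 0.68.

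The spread among the MKO_PD1 tumours exceeded that among the controls for 8 of the 10 genes, all but Gclc and Gclm, taking the SD over the mean, against 81.7% of all tested genes. MKO_PD1 replicate 1 was the lowest of the 6 libraries for 7 of 10, against 70.2% of all tested genes, so the genes were not set apart in this. MKO_PD1 replicate 2 lay within the control range for 6 of 10, against 36.8% of all tested genes. Without MKO_PD1 replicate 2, 3 of the 10 genes passed the threshold, Slc7a11 (log2 difference -1.36; limma adjusted p = 0.0345), Acsl4 (-1.16; limma adjusted p = 0.0292) and Keap1 (-0.67; limma adjusted p = 0.0435), all lower in MKO_PD1. In that fit 45.9% of all tested genes passed, 38.0% lower and 7.88% higher, and the median of all genes was -0.66, which Keap1 matched. Without MKO_PD1 replicate 1 the differences of Slc7a11, Acsl4 and Keap1 were -0.34, -0.39 and -0.23, none past the threshold (limma adjusted p = 0.637, 0.420 and 0.574). Over all alternatives tried the adjusted p ranged from 0.0345 to 1.0 for Slc7a11, from 0.0292 to 1.0 for Acsl4 and from 0.0435 to 1.0 for Keap1. With the hepatocyte marker mean as a covariate the differences were 0.75 for Slc7a11, 0.28 for Acsl4 and 0.17 for Keap1 (limma adjusted p = 1.0 for each). The hepatocyte marker share was higher in each MKO_PD1 library than in any control, so group and hepatocyte content cannot be told apart in this fit.

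**Figure D4:**
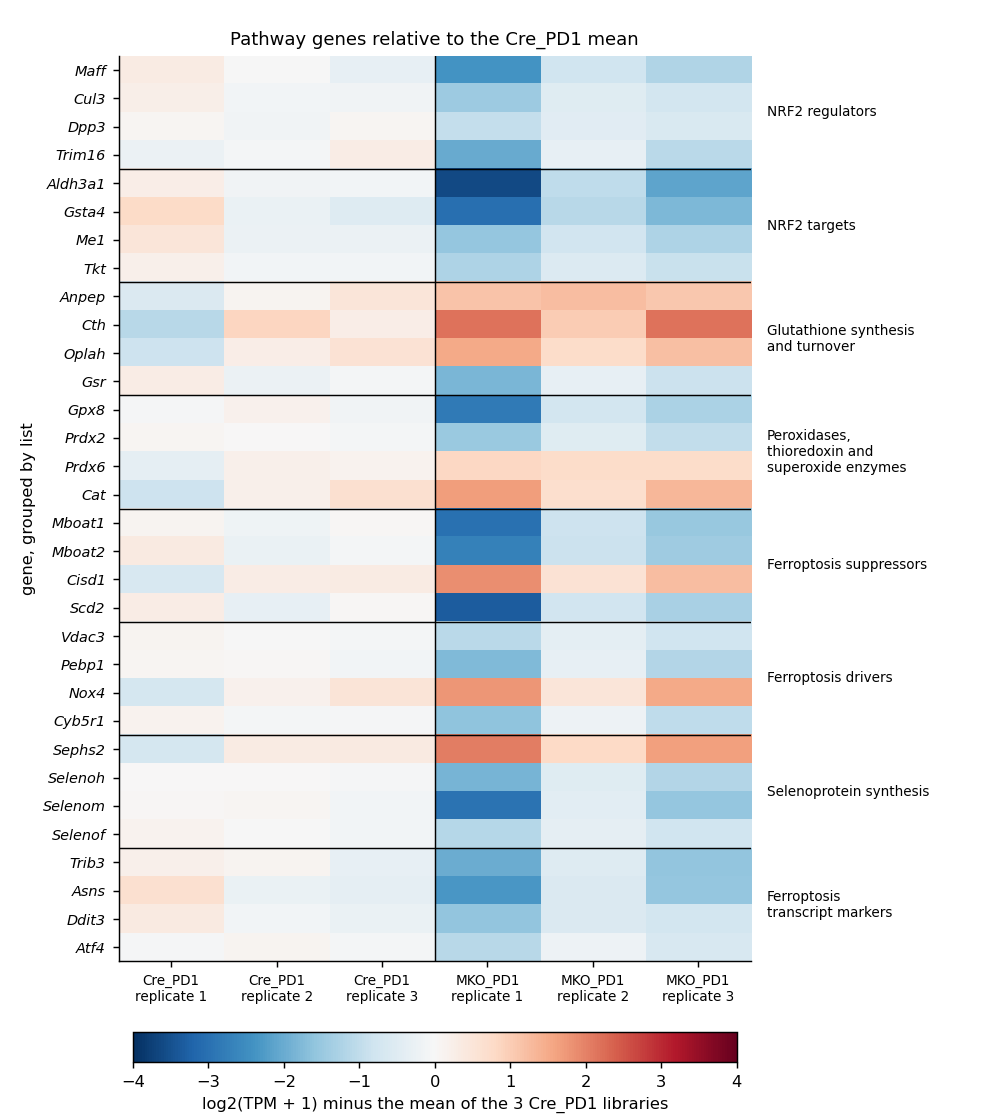
Log2(TPM + 1) of the genes named from each pathway list, minus the mean of the 3 Cre_PD1 libraries, in every library (blue lower, red higher), the genes being up to 4 per list of smallest unadjusted p. None passed the threshold. In MKO_PD1 replicate 1 Aldh3a1 stands at 3.10 TPM against a control mean of 49.3 TPM, and Cth at 104 TPM against 26.1 TPM.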

How the data were processed

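Polyadenylated RNA of 6 tumours was sequenced, 1 library each. Per the submitters' processing notes, reads were aligned with STAR 2.7.10a to mm10 and counted with featureCounts 2.0.3 of Subread. The deposited values are a read signal per exon length that the authors named TPM; column sums differ between libraries, so it is not TPM as the design had assumed. Value times exon length (GENCODE M21) divided by a shared constant of 8.028 gave whole reads, within 0.001, for 98.5% of 29798 genes with a value. Each column was rescaled to 1000000. Genes with at least 1 TPM in 3 libraries were tested on log2(TPM + 1), a pseudocount of 1, with limma 3.58.1 in R 4.3.3 (trend, no covariate), with Benjamini-Hochberg adjustment at 0.05. Ratios were tested by exact permutation over 20 splits. On simulated counts of 15889 genes at dispersion 0.05, 95.9% of 4-fold and 25.3% of 2-fold changes were recovered. Of the simulated calls 10.4% were false, and 0.564% among genes with at least 60 reads on average, as all 10 genes have. Reads carry no molecular identifiers, and the number of libraries limits precision. The rule named all 10 genes, Trem2, the 4 genes of smallest p per pathway list and the 3 nearest profiles. The genes and lists were chosen with earlier results of these data known. Alternatives changed pseudocount, filter, scaling, trend, block, covariate, tool and libraries.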

Additional observations from a re-analysis of the deposited data

How the results depend on the processing

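With 3 libraries a group, all 10 intervals include 0. In the simulation 25.3% of 2-fold changes were recovered, with the same dispersion in both groups, which the real libraries do not have. The count of genes past the threshold, 2 in the main analysis, was 0 without a filter, with a filter of 5 TPM, with the hepatocyte covariate and with limma voom on recovered reads, and 1 with median-of-ratios scaling and without MKO_PD1 replicates 1 and 3, an alternative chosen after seeing the data. By unadjusted limma p under 0.05 those 6 settings had 5080, 3752, 453, 4722, 5036 and 2054 genes. Leaving out each library in turn it ran from 0 to 7314, the highest without MKO_PD1 replicate 2, where the count of the 10 genes past it was 3 (range 0 to 3). The replicate block gave 0 genes, with 3279 at an unadjusted limma p under 0.05, and 0 of the 10. The labels state no pairing. Deviations of same-numbered libraries correlated at -0.42, -0.265 and 0.0488 across genes, and those of differently numbered libraries at -0.234 to 0.388. With 3 libraries a group, these values cannot exclude a pairing or a shared batch. Signs turned as follows, with no cause tested. With median-of-ratios scaling Nfe2l2 was 0.27, Keap1 0.04, Txnrd1 0.39, Srxn1 0.34 and Gpx4 0.15. With voom they were 0.30, 0.06, 0.42, 0.37 and 0.19, and Trem2 was 0.02. With the hepatocyte list removed before scaling Txnrd1 was 0.09 and Srxn1 0.04. With the hepatocyte covariate Nfe2l2 was 0.32, Keap1 0.17, Gclc 0.32, Txnrd1 0.22, Srxn1 0.03, Slc7a11 0.75, Acsl4 0.28, Oplah -0.05, Gsr 0.02, Cat -0.11, Cisd1 -0.06, Nox4 -0.15 and Asns 0.06, and all 32 named pathway genes were nearer to 0 than in the main analysis. Without MKO_PD1 replicates 1 and 3, which leaves 1 MKO_PD1 library assumed to vary like the controls, Nfe2l2 was 0.25, Keap1 0.03, Txnrd1 0.22, Srxn1 0.03, Slc7a11 0.25, Acsl4 0.00157 and Trem2 0.36. Leaving out each library gave -0.42 to 0.01 for Nfe2l2, -0.23 to 0.10 for Txnrd1, -0.22 to 0.04 for Srxn1 and -0.84 to -0.20 for Trem2, whose lowest value passed (limma adjusted p = 0.0450, over alternatives 0.0450 to 1.0). The ratios ran from -0.20 to 0.18 for Slc7a11 to Slc3a2, -0.25 to 0.01 for Txnrd1 to Txn1, 0.19 to 0.27 for Nfe2l2 to Keap1, 0.45 to 0.93 for Gclm to Gclc and -0.76 to -0.07 for Acsl4 to Gpx4. Without a pseudocount the ratio of Slc7a11 to Slc3a2 was -0.40. With each library left out in turn Slc7a11 ran from -1.36 to -0.34, Acsl4 from -1.16 to -0.39, Keap1 from -0.67 to -0.23 and Gclc from -0.72 to -0.28. Nqo1 and Gclm stayed above 0 in every alternative. Without MKO_PD1 replicate 2 all 32 other pathway genes named passed, as did 45.9% of all genes. The 32 were picked by smallest p in the main fit of the same libraries. Neither this nor their move toward 0 with the covariate therefore sets them apart from other genes.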
